A study of Homo sapiens with 13 samples.

Results

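Vascular endothelial growth factor (VEGF) and other secreted angiogenic factors were followed as 10 genes in SW480 cells, an established line from a human colon cancer. The 10 were chosen by name from the 18404 genes of the table. They were 7 ligands (VEGFA, VEGFB, VEGFC, PGF, ADM, ANGPTL4 and APLN) and 3 receptors or co-receptors (NRP1, FLT1 and KDR). Each had 1 transcript cluster on the Affymetrix Human Gene 1.0 ST array, and all 10 entered the fit, since no filter on low signal was applied. RNA was measured on 13 arrays after 6 h in DFO (deferoxamine, n = 4, 100 mM in the labels), Deferasirox (n = 3, 50 mM), OICR623 (n = 2, 10 mM) or the solvent DMSO at 0.1% (n = 4). The question of the series was what iron chelators do to gene expression genome-wide. OICR623 has only a code name in the labels, the doses are high for cells in culture, and whether another unit was meant cannot be settled from the labels. They do not say whether the compound-treated wells also held DMSO. All groups are the same cell line, the labels name no genetic change, and the series text calls the replicates independent experiments.

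The VEGF ligands are secreted proteins that act on receptor tyrosine kinases, above all on the endothelial cells that line blood vessels. VEGFA binds FLT1 and KDR, with NRP1 as a co-receptor, VEGFB and PGF bind FLT1, and VEGFC acts on FLT4 and KDR and is known for the growth of lymphatic vessels. Several of these factors are textbook targets of hypoxia-inducible factor (HIF), whose alpha subunits are marked for degradation by prolyl hydroxylases that need iron and oxygen. VEGFA is also made by colon cancer cells, where it is a drug target.

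The promoters of 8 of the 10 genes were found in the RefSeq table (build GRCh38.p14), VEGFA and NRP1 being the other two, and 4 of them are shown because 3 belong to genes called higher under the compounds and 1 to a ligand that was not called. Each sequence holds the 250 bases before the transcription start. Capitals mark the core of the HIF binding site, searched as ACGTG and as GCGTG on both strands, so that a match on the opposite strand reads CACGT or CACGC. These 2 motifs do not overlap each other in the sequences shown.
ADM, chr11:10304823-10305072, plus strand: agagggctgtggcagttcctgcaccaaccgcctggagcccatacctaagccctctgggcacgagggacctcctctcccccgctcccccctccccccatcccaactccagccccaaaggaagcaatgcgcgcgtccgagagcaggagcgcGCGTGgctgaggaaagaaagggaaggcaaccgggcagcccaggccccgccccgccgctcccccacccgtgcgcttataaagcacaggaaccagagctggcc
ANGPTL4, chr19:8363905-8364154, plus strand: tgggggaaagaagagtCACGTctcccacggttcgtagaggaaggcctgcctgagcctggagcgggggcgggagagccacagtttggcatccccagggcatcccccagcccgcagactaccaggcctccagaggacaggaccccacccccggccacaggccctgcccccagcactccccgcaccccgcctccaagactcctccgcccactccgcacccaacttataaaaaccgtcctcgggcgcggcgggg
APLN, chrX:129654957-129655206, minus strand: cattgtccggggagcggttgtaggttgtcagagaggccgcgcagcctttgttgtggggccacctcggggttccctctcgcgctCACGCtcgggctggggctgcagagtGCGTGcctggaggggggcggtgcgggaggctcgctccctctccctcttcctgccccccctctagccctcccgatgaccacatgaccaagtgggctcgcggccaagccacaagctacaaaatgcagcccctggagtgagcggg
VEGFB, chr11:64234334-64234583, plus strand: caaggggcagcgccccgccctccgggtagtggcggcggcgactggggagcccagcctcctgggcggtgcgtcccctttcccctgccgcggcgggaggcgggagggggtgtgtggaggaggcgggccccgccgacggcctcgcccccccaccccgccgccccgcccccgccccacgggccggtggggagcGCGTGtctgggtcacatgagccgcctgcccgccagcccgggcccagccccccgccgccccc

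ADM held 1 match and ANGPTL4 held 1, APLN held 2, and VEGFB, which was not called under any compound, also held 1. Among all 35116 promoters of this length, 43.2% held ACGTG or GCGTG, so the presence of the letters did not set the called genes apart from VEGFB. A match was held by 7 of the 8 genes found, among them VEGFC, PGF and FLT1, which were not called either. A match describes these letters only. ADM and ANGPTL4 also carried TATAAA on the plus strand, starting 27 and 29 bases before the start, a motif (searched on both strands) held by 10.7% of all promoters, and so did FLT1, which was not called, starting 31 bases before its start. APLN and VEGFB did not.

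Every value is a log2 signal, so that a difference of 1 is a doubling, and signals of different genes cannot be ranked because each probe set has its own brightness. The table has no detection calls, so whether the low signals of FLT1, KDR or VEGFC exceed background could not be told. Array medians fell into 3 levels, a high level of 2 arrays (DFO 1 and DMSO 1, medians 7.17 to 7.19), a low level of 3 (DFO 4, Deferasirox 3 and DMSO 4, 6.52 to 6.55) and a middle level of the other 8 (6.64 to 6.69), the number after each group being its replicate. Differences were therefore fitted in limma with the level as a block, and a call means an adjusted p (Benjamini-Hochberg, all 18404 genes) under 0.05. Calls of the 10 genes that the fit without this block did not make are named as such. The mean signals of the 8 colon epithelium markers ran between 5.52 and 13.02, with KRT8 and KRT18 at the upper end and CDH1 at 4.77 to 6.72. The summed linear signal of the 8 endothelial markers lay between 553 and 716 under DFO, 595 and 602 under Deferasirox, 588 and 615 under OICR623 and 568 and 685 in DMSO. By limma 0 of the 8 were called under any compound (0, 1 and 0 at an unadjusted p under 0.05). At that unadjusted threshold 15.7%, 18% and 10.7% of all genes passed under DFO, Deferasirox and OICR623. Of the 8 epithelial markers, KRT19 was called higher (0.35 and 0.33) and CDX2, a transcription factor gene of gut epithelium, lower (-0.49 and -0.77) under DFO and Deferasirox, calls that were lost without a block, and whether this has a part in the results was not tested. Because RNA came from whole wells, more signal per cell and more cells with signal cannot be told apart.

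VEGFA, ADM, ANGPTL4 and APLN rose under all 3 compounds, and the other 6 genes were not called under any of them. Under DFO 4 of the 10 genes were called higher and 0 lower, where 1.89% of all genes were called higher and 2.72% lower (4.6% in all). Under Deferasirox the counts were again 4 and 0, against 2.83% and 3% of all genes (5.84% in all), and under OICR623 they were 4 and 0, against 0.337% and 0.397% (0.734% in all). The median difference of the 10 genes was 0.11 under DFO, 0.11 under Deferasirox and 0.13 under OICR623 on the log2 scale, beside 0.00 over all genes in each comparison. The 3 comparisons share the DMSO arrays. The genes were chosen with earlier results of these data known, so these counts describe them and test nothing about them as a set.

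**Figure D1:**
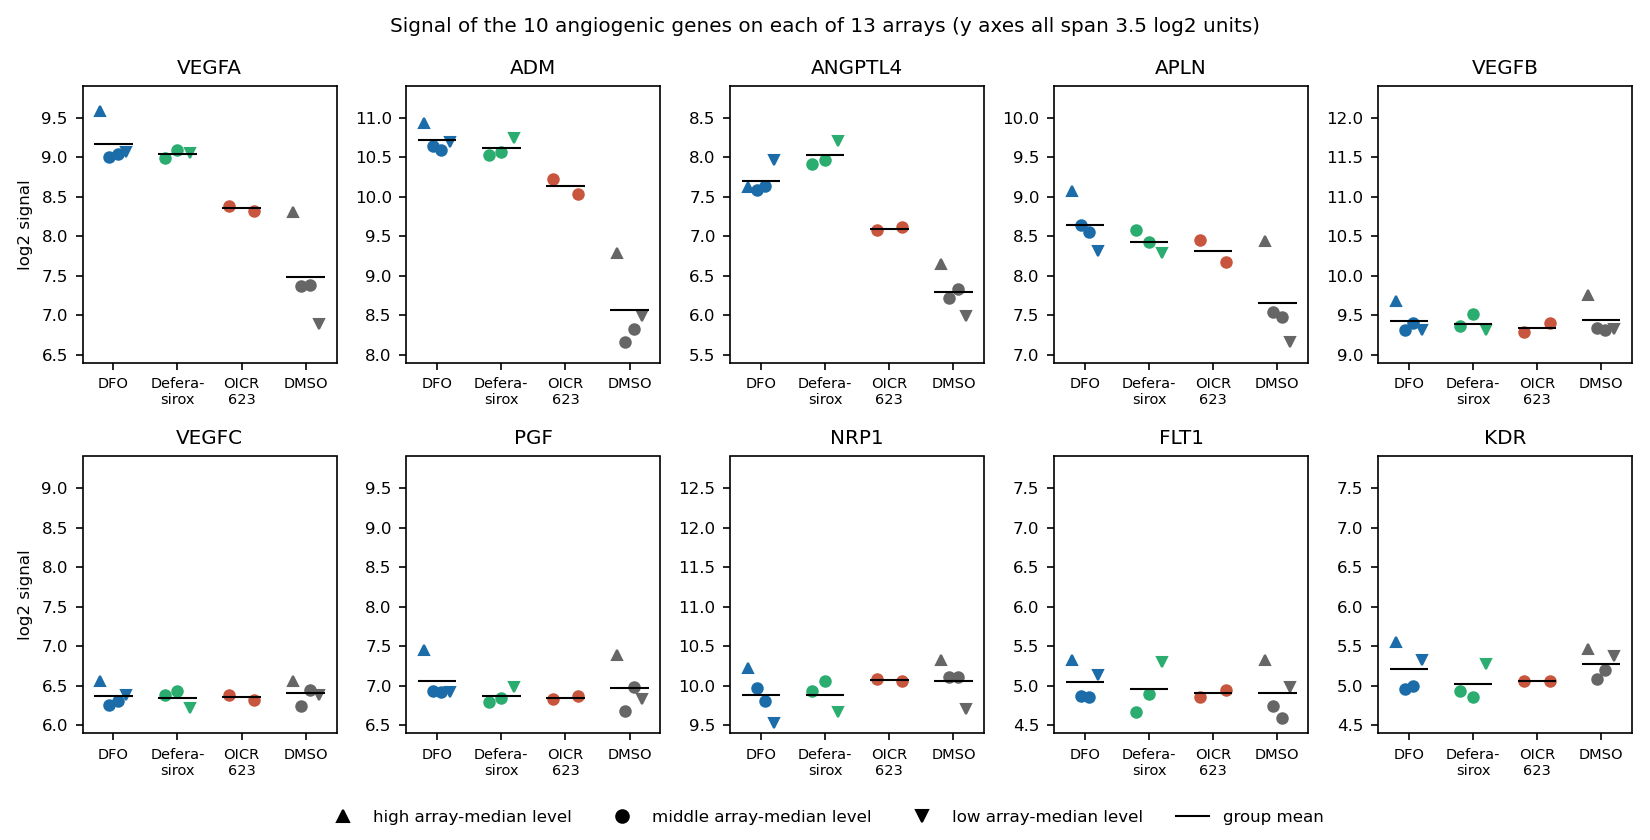
Log2 signal (y axis) of the 10 genes on each of the 13 arrays, by group (x axis); each point is an array, its shape gives the array-median level, and the line is the group mean. VEGFA, ADM and ANGPTL4 lie above every DMSO array under all 3 compounds, and APLN does not, because DMSO 1 reached 8.43.

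VEGFA, the ligand that drives most vessel growth (transcript cluster 8119898), had signals of 9.58, 9.00, 9.04 and 9.06 in DFO 1 to 4. It had 8.98, 9.08 and 9.06 under Deferasirox and 8.38 and 8.31 under OICR623, against 8.30, 7.37, 7.38 and 6.88 in DMSO 1 to 4. All compound arrays lay above all DMSO arrays, but the margin between OICR623 2 and DMSO 1, an array of the high level, was 0.015. Signals without overlap in this direction were found in 0.326% of all genes for DFO, 0.451% for Deferasirox and 1.11% for OICR623. The fitted rise was 1.69 under DFO (SE 0.11, adjusted p = 6.3e-06), a 3.22-fold change with a 95% interval of 2.72 to 3.81. Under Deferasirox it was 3.39-fold (interval 2.81 to 4.10, adjusted p = 1.5e-05) and under OICR623 2.03-fold (interval 1.63 to 2.53, adjusted p = 0.0086). DMSO arrays spanned 1.42 log2 units for this gene, DFO arrays 0.58 and Deferasirox arrays 0.10. The spread thus lay mainly in the DMSO arrays, which cover all 3 levels as the DFO arrays do.

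ADM encodes adrenomedullin, a peptide that widens blood vessels and acts through the receptor CALCRL together with RAMP2 or RAMP3. Its signal (transcript cluster 7938390) was 10.93, 10.64, 10.59 and 10.69 in DFO 1 to 4, 10.53, 10.56 and 10.74 under Deferasirox, and 10.22 and 10.04 under OICR623, against 9.29, 8.15, 8.33 and 8.49 in DMSO 1 to 4. No compound array overlapped with DMSO, and the lowest of them stood 0.75 above DMSO 1. Of the 10 genes it had the highest fitted rise under each compound, 4.43-fold under DFO (interval 3.77 to 5.20, adjusted p = 8.2e-07), 4.61-fold under Deferasirox (3.85 to 5.52, adjusted p = 2.4e-06) and 3.43-fold under OICR623 (2.78 to 4.23, adjusted p = 1.6e-04). ADM was also the member whose OICR623 call came closest to holding without a block, where limma gave an adjusted p of 0.070.

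ANGPTL4 encodes a secreted inhibitor of lipoprotein lipase that is also studied for its effects on vessel permeability. Its signal (transcript cluster 8025402) was 7.63, 7.59, 7.63 and 7.96 in DFO 1 to 4. It was 7.91, 7.97 and 8.20 under Deferasirox and 7.07 and 7.12 under OICR623, against 6.64, 6.22, 6.33 and 5.99 in DMSO 1 to 4. Again no compound array overlapped with DMSO. The Deferasirox arrays were the highest group, but Deferasirox 1 at 7.91 lay below DFO 4 at 7.96. The rise was 2.65-fold under DFO (interval 2.20 to 3.18, adjusted p = 5.1e-05), 3.43-fold under Deferasirox (2.79 to 4.22, adjusted p = 2.7e-05) and 1.84-fold under OICR623 (1.45 to 2.34, adjusted p = 0.035). The OICR623 call was the least stable of the 12 made for these genes against DMSO, and was kept in 8 of 22 alternatives.

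APLN encodes apelin, the ligand of the receptor APLNR, and is known from endothelial cells of growing vessels. Its signal (transcript cluster 8175016) was 9.08, 8.65, 8.55 and 8.31 in DFO 1 to 4, 8.57, 8.43 and 8.29 under Deferasirox, and 8.46 and 8.18 under OICR623. In DMSO 1 to 4 it was 8.43, 7.54, 7.47 and 7.15. DMSO 1 lay within the range of every compound group, whereas the other three DMSO arrays lay below all compound arrays. The fitted rise was 1.99-fold under DFO (interval 1.74 to 2.28, adjusted p = 6.2e-05), 1.97-fold under Deferasirox (1.70 to 2.29, adjusted p = 1.8e-04) and 1.71-fold under OICR623 (1.44 to 2.04, adjusted p = 0.011). None of these calls held without the level as a block, where the adjusted p by limma was 0.30, 0.91 and 1.00 in the same order.

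**Figure D2:**
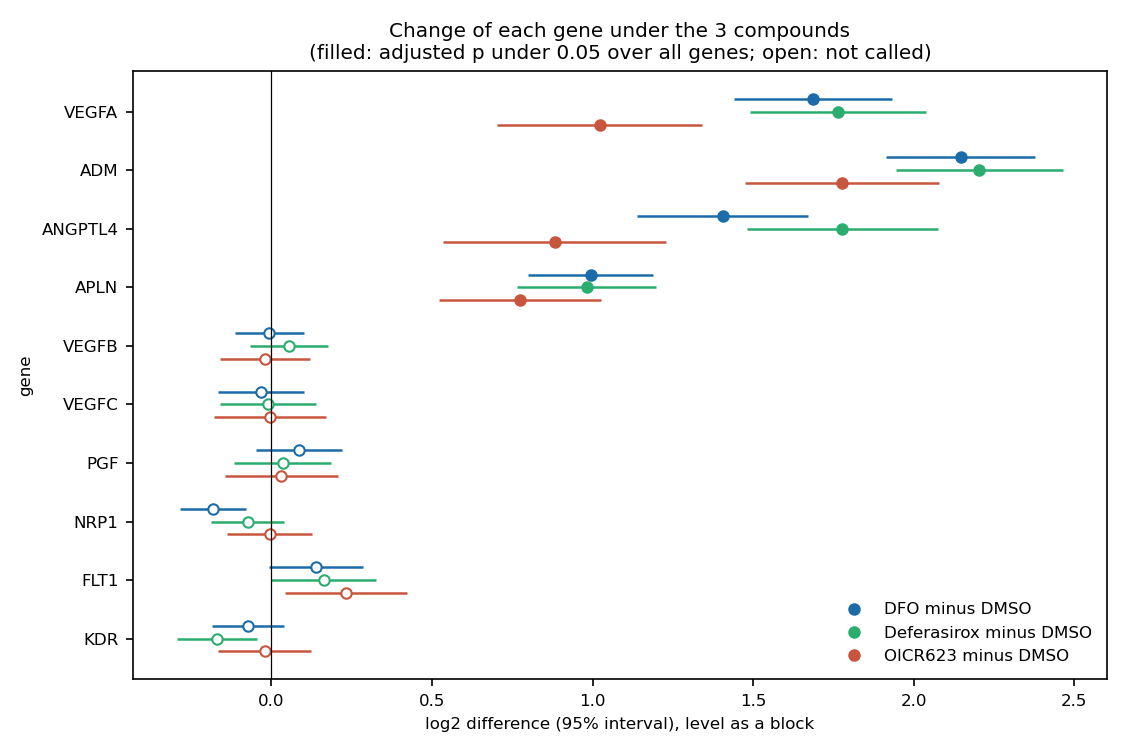
Log2 difference of each compound from DMSO (x axis) for the 10 genes (y axis), with 95% intervals from limma and the level as block; filled points passed an adjusted p under 0.05. VEGFA, ADM, ANGPTL4 and APLN lie between 0.77 and 2.20, and the other genes between -0.18 and 0.23.

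Without a block, VEGFA, ADM and ANGPTL4 were called under DFO (adjusted p = 0.0042, 2.1e-04 and 7.8e-04 by limma) and under Deferasirox (0.021, 9.4e-04 and 3.4e-04), when 0.109% and 0.0978% of all genes were called higher. Under OICR623 none of the 10 was called in that fit, in which 7 genes in all were called, each higher (0.038%). VEGFA, ADM, ANGPTL4 and APLN had an unadjusted p under 0.05 in it, and the share of all genes at that threshold is not given. Without a block the median over all genes was 0.00 under DFO, -0.15 under Deferasirox and -0.11 under OICR623, and only DFO covers the same levels as DMSO. Within the levels the differences kept their sign for the 4 genes. For VEGFA, DFO minus DMSO was 1.28 in the high, 1.64 in the middle and 2.18 in the low level, and Deferasirox minus DMSO was 1.66 in the middle and 2.18 in the low level. ADM differed by 1.64, 2.37 and 2.20 under DFO in the same order of levels, ANGPTL4 by 0.98, 1.33 and 1.97, and APLN by 0.64, 1.09 and 1.15. In the middle level, the only one with OICR623 arrays, OICR623 minus DMSO was 0.97 for VEGFA, 1.89 for ADM, 0.82 for ANGPTL4 and 0.81 for APLN. The high and low levels hold 1 array of each group they cover, so the differences there have no replicate check, and whether the size of the change differs between levels was not tested.

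**Figure D3:**
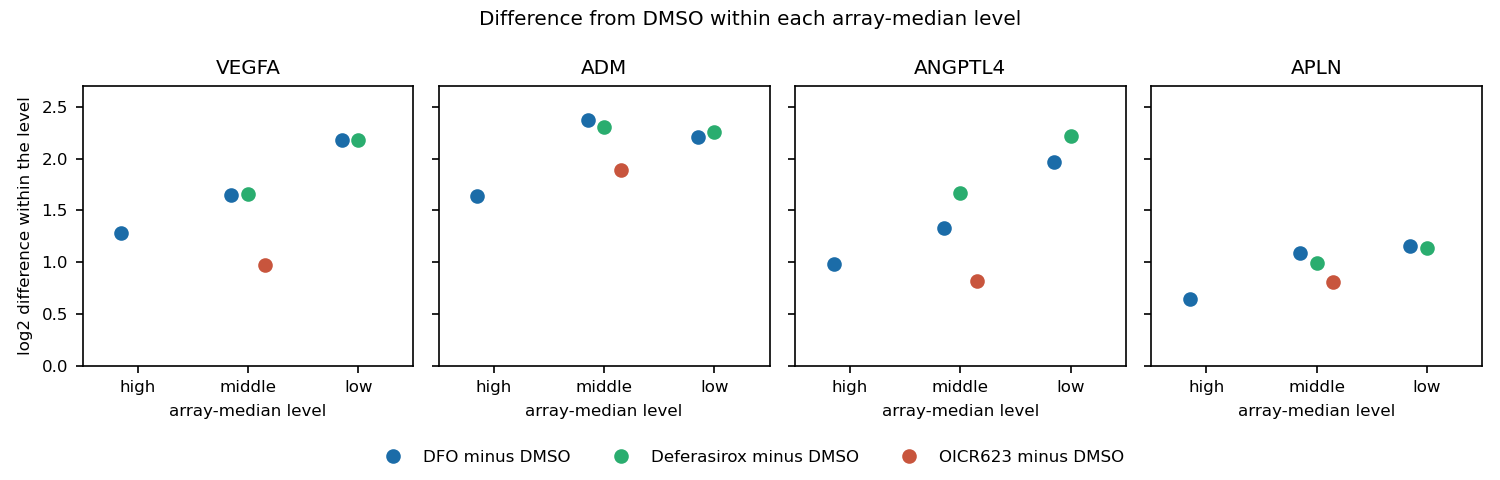
Log2 difference of each compound from DMSO (y axis) within the high, middle and low array-median levels (x axis) for the 4 genes that rose; each point is a difference of means of the arrays of that level. All points lie above 0, from 0.64 for APLN under DFO in the high level to 2.37 for ADM under DFO in the middle level.

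The 3 other VEGF-family ligands among the 10 genes did not pass the test, and VEGFD, a further ligand of the family, was not among the genes tested. VEGFB, a ligand of FLT1 linked to lipid handling in muscle and heart, had 9.31 to 9.68 under DFO, 9.31 to 9.52 under Deferasirox and 9.28 to 9.40 under OICR623, against 9.32 to 9.75 in DMSO. Its difference was -0.01 under DFO (interval -0.11 to 0.10, adjusted p = 0.97), 0.05 under Deferasirox (-0.07 to 0.18) and -0.02 under OICR623 (-0.16 to 0.12). These intervals leave out a change as large as that of VEGFA in all 3 comparisons. VEGFC, the lymphatic ligand, lay between 6.21 and 6.56 over all 13 arrays, with differences of -0.03, -0.01 and -0.00 under DFO, Deferasirox and OICR623 and adjusted p of 0.88, 0.97 and 1.00. PGF, placental growth factor, had 6.91 to 7.46 under DFO, 6.79 to 6.98 under Deferasirox and 6.83 to 6.87 under OICR623, against 6.68 to 7.39 in DMSO. Its difference was 0.09 under DFO (interval -0.05 to 0.22), 0.04 under Deferasirox and 0.03 under OICR623.

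Among the receptors, NRP1 came nearest to a call. This co-receptor of VEGFA and of class 3 semaphorins had 10.22, 9.97, 9.81 and 9.52 in DFO 1 to 4, against 10.33, 10.11, 10.10 and 9.70 in DMSO 1 to 4. DFO was below DMSO in every level, by -0.11, -0.22 and -0.18 in the high, middle and low level, although the groups overlap. The fitted difference was -0.18 and its interval -0.28 to -0.08, and limma gave an adjusted p of 0.056. It was called lower in 2 of 23 alternatives, with dim genes left out (adjusted p = 0.030) and with an intensity trend in the variance (adjusted p = 0.011). Under Deferasirox NRP1 had 9.94, 10.06 and 9.66 and a difference of -0.07 (adjusted p = 0.53), and under OICR623 10.09 and 10.06 and a difference of -0.01 (adjusted p = 0.99).

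FLT1 and KDR, the receptor tyrosine kinases of VEGFA in endothelium, had low signals on all arrays. FLT1 lay between 4.85 and 5.33 under DFO, 4.67 and 5.30 under Deferasirox and 4.86 and 4.94 under OICR623, against 4.59 and 5.32 in DMSO. The fitted differences of FLT1 were 0.14, 0.16 and 0.23 under DFO, Deferasirox and OICR623 (adjusted p = 0.35, 0.28 and 0.35), and its interval under OICR623 was 0.04 to 0.42. KDR lay between 4.96 and 5.55 under DFO, 4.86 and 5.27 under Deferasirox and at 5.06 on both OICR623 arrays, against 5.08 and 5.47 in DMSO. KDR differed by -0.07, -0.17 and -0.02 under the same compounds (adjusted p = 0.57, 0.12 and 0.95). Both OICR623 arrays lay below all DMSO arrays for KDR, as was so for 5% of all genes in that direction, and both belong to the middle level.

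The compounds were then set side by side, although their labelled doses differ and no pair was compared at a matched dose. None of the 10 genes was called in any of the 3 pairs, in which 0.168% of all genes were called for OICR623 against DFO, 0.0435% for Deferasirox against DFO and 0.0869% for OICR623 against Deferasirox. At an unadjusted p under 0.05, 4, 1 and 4 of the 10 genes passed in these pairs, where 5.67%, 10% and 8.54% of all genes did. For VEGFA, Deferasirox and DFO differed by 0.08 on the log2 scale (interval -0.20 to 0.35), so a gap of either sign within these bounds cannot be told from none. OICR623 minus DFO was -0.66 (interval -0.98 to -0.35, adjusted p = 0.21) and OICR623 minus Deferasirox was -0.74 (-1.07 to -0.41, adjusted p = 0.11). The OICR623 arrays did not overlap with those of DFO or Deferasirox for VEGFA, ADM or ANGPTL4. They also did not overlap with DFO for PGF or with Deferasirox for NRP1. The share of all genes without overlap in these pairs is not given, so no weight can be put on this separation. The intervals of VEGFA, ADM and ANGPTL4 lie below 0 gene by gene but did not pass the adjustment over all genes. VEGFA was called lower under OICR623 than under DFO in 4 of 22 alternatives, with the level as a random block (adjusted p = 0.039), in the middle level alone (0.0094), with an intensity trend (0.034) and without DMSO 4 (0.017). The same 4 alternatives called it lower under OICR623 than under Deferasirox (0.022, 0.032, 0.014 and 0.027).

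ANGPTL4 showed the widest pair difference of the 4 genes that rose, with OICR623 minus Deferasirox at -0.90 (interval -1.25 to -0.54, adjusted p = 0.080). It was called with the level as a random block (adjusted p = 0.0070), in the middle level alone (0.017), with dim genes left out (0.039), with an intensity trend (0.0082), without DMSO 4 (0.016) and without DMSO 1 or DFO 1 (0.049 for each). For this gene OICR623 minus DFO was -0.52 (-0.87 to -0.18, adjusted p = 0.58, and 0.043 in the middle level alone) and Deferasirox minus DFO 0.37 (0.08 to 0.67, adjusted p = 0.36). ADM differed by -0.37 for OICR623 minus DFO (-0.67 to -0.07) and by -0.43 for OICR623 minus Deferasirox (-0.74 to -0.12), with adjusted p of 0.80 and 0.40. APLN differed least, by -0.22 and -0.21 in the same pairs, with intervals that include 0. The mean of each of the 4 genes was lowest in DMSO and next lowest under OICR623, while the order of DFO and Deferasirox turned with the block for VEGFA and ADM, for which Deferasirox minus DFO was -0.13 and -0.10 without it.

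**Figure D4:**
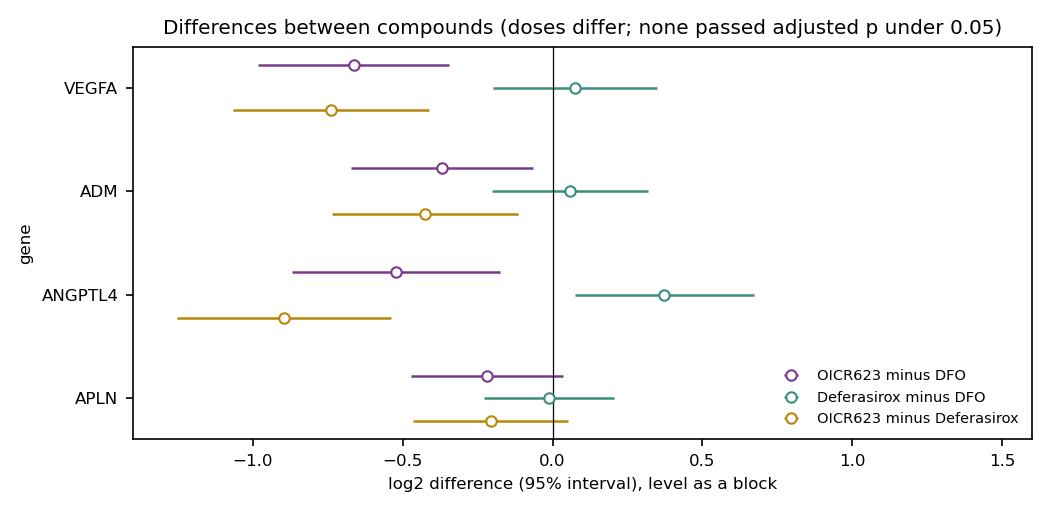
Log2 difference between pairs of compounds (x axis) with 95% intervals for the 4 genes that rose (y axis), from limma and the level as block; doses differ between compounds as labelled. The differences of OICR623 from the other compounds lie between -0.90 and -0.21, those of Deferasirox from DFO between -0.01 and 0.37, and open points mean that none was called.

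The way the 10 genes varied together was described over the 13 arrays after each level's mean was subtracted from every gene. On this scale the Pearson correlation with VEGFA was 0.987 for ANGPTL4, 0.973 for ADM and 0.971 for APLN, 0.174 for VEGFB, -0.174 for VEGFC and 0.40 for PGF. NRP1 had -0.678, KDR -0.638 and FLT1 0.617. The arrays share their groups, so these values mostly restate the contrast of compounds with DMSO. Of the 171 other genes with an SD of at least 0.3 on that scale, the 5 most like VEGFA were ITGA5, an integrin subunit gene (0.995), IGFBP3, which encodes a binder of insulin-like growth factors (0.993), the histone demethylase gene KDM3A (0.991), the collagen hydroxylase gene P4HA1 (0.990) and DDIT4, an inhibitor of mTOR signalling (0.989). For ADM they were EGLN3, CHST15, BHLHE40, MOB3A and ERRFI1, between 0.993 and 0.998. For ANGPTL4 they were ITGA5, IGFBP3, VEGFA, ANKRD37 and P4HA1, between 0.981 and 0.988. ITGA5 changed by 0.84 under DFO, 0.94 under Deferasirox and 0.55 under OICR623.

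Other genes of vessel growth were taken from 4 lists. Of 45 measured further ligands, 6 rose and 2 fell under DFO, where 1.89% of all genes rose and 2.72% fell. Under Deferasirox 8 rose and 0 fell, against 2.83% and 3% of all genes. Under OICR623 4 rose and 0 fell, against 0.337% and 0.397%. The median difference of this list was 0.03 in each comparison, beside 0.00 over all genes. TGFA, a ligand of the EGF receptor, led in each, with 1.04 (SE 0.06, adjusted p = 2.0e-06) under DFO, 1.24 (SE 0.07, adjusted p = 2.4e-06) under Deferasirox and 1.01 (SE 0.08, adjusted p = 1.6e-04) under OICR623. TGFA had 9.65, 8.83, 8.87 and 8.72 in DFO 1 to 4, 9.03, 9.02 and 8.83 under Deferasirox and 8.75 and 8.81 under OICR623, against 8.88, 7.76, 7.69 and 7.57 in DMSO 1 to 4. DMSO 1 lay within the range of the DFO and Deferasirox arrays and above both OICR623 arrays. Without a block 0 of these ligands were called by limma, and 3, 2 and 2 passed an unadjusted p under 0.05 under DFO, Deferasirox and OICR623. The share of all genes at that threshold without a block is not given.

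PDGFA and PDGFB, which encode the chains of platelet-derived growth factor, rose under all 3 compounds, PDGFA by 0.63, 0.76 and 0.57 and PDGFB by 0.53, 0.63 and 0.29 under DFO, Deferasirox and OICR623. All 6 calls were lost without a block. PDGFB under OICR623 (SE 0.06, adjusted p = 0.045) was kept in 5 of 22 alternatives. Its difference was -0.14 with a replicate block in place of the level, a block that mixes levels for OICR623. The cytokine gene LIF rose by 0.54, 0.58 and 0.56. EDN1, which encodes the vasoconstrictor endothelin, rose under Deferasirox by 0.64 (SE 0.09, adjusted p = 0.0016) and stood at 0.25 under DFO (adjusted p = 0.13) and 0.33 under OICR623 (adjusted p = 0.24), neither of them called. ESM1, which encodes a proteoglycan secreted by endothelium, and BMP4, which encodes a morphogen of the TGF-beta family, were the ligand genes that fell under DFO, with differences of -0.36 and -0.30, while ESM1 at -0.20 and -0.19 and BMP4 at -0.17 and -0.27 were not called under Deferasirox and OICR623.

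Of 38 measured receptors 3 rose under DFO, the chemokine receptor gene CXCR4 at 0.38, the ephrin receptor gene EPHB4 at 0.21 and the semaphorin receptor gene PLXND1 at 0.20, and 0 fell, where 1.89% of all genes rose. CXCR4 was kept in 7 of 23 alternatives. The same 3 were called under Deferasirox, at 0.47, 0.16 and 0.20, with adjusted p between 0.021 and 0.040, where 2.83% of all genes rose, and 0 of 38 under OICR623 by limma. At an unadjusted p under 0.05, 4, 5 and 3 were higher and 2, 1 and 2 lower under DFO, Deferasirox and OICR623. Of all genes, 15.7%, 18% and 10.7% passed that threshold in either direction. The calls of CXCR4, EPHB4 and PLXND1 were lost without a block, where these genes stood at 0.09, 0.003 and -0.04 under Deferasirox. With a replicate block in place of the level, which mixes levels for Deferasirox, they stood at -0.01, -0.11 and -0.12. Their Deferasirox calls were kept in 11, 5 and 10 of 22 alternatives. NRP2, a co-receptor of VEGFA and VEGFC, fell under Deferasirox, with a difference of -0.88 (SE 0.07, adjusted p = 4.9e-05, and 0.025 without a block). NRP2 had 9.02, 8.81, 8.81 and 8.71 in DFO 1 to 4, 8.10, 8.23 and 7.85 under Deferasirox and 8.93 and 8.87 under OICR623, against 9.10, 8.94, 9.18 and 8.71 in DMSO 1 to 4. The 3 Deferasirox arrays lay below all other arrays, but the share of all genes separated in this way is not given. Without a block NRP2 under Deferasirox was the one call on the receptor list. That call against DMSO was kept in 21 of 22 alternatives and lost after quantile normalization (adjusted p = 0.076 by limma). The difference of NRP2 was -0.14 under DFO (adjusted p = 0.30) and -0.11 under OICR623 (adjusted p = 0.72). Deferasirox minus DFO was -0.73 for NRP2 (interval -0.89 to -0.57, adjusted p = 0.0064), and OICR623 minus Deferasirox was 0.76 (0.57 to 0.95, adjusted p = 0.0090). Each of these 2 calls between compounds was kept in 14 of 22 alternatives and lost in the fit without a block, among others.

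**Figure D5:**
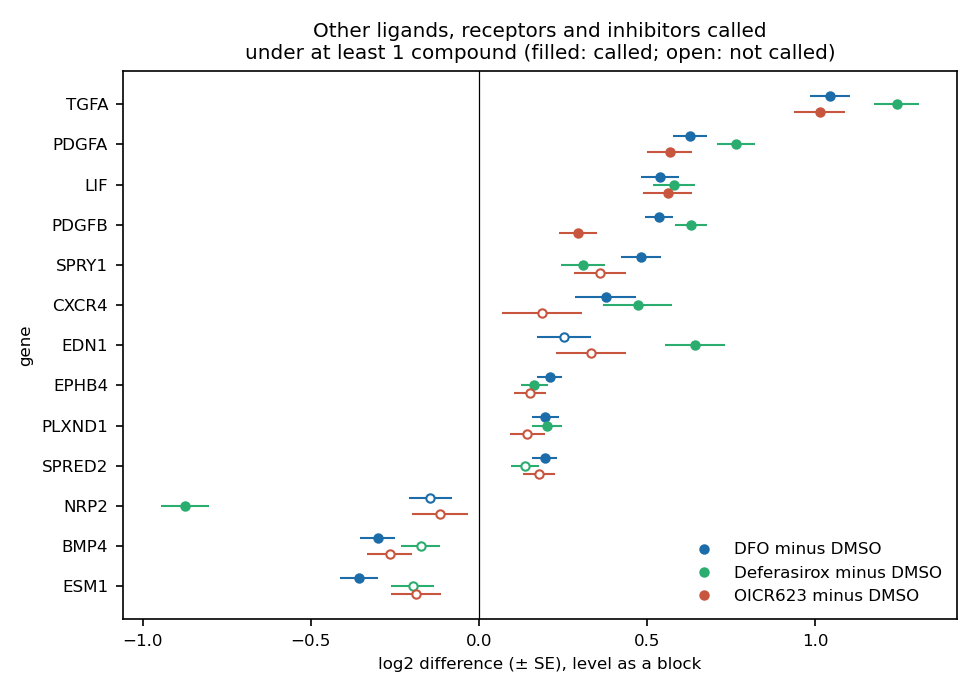
Log2 difference from DMSO (x axis, with SE) of the named further ligands, receptors and inhibitors (y axis) under each compound; filled points were called, open ones were not. TGFA lies highest, between 1.01 and 1.24, and NRP2 lies at -0.88 under Deferasirox.

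The 4 measured genes APLNR, CALCRL, RAMP2 and FLT4, which encode receptors or receptor subunits of apelin, adrenomedullin and VEGFC, were not called. APLNR differed by 0.02, -0.12 and -0.13 under DFO, Deferasirox and OICR623, CALCRL by -0.07, 0.02 and -0.08, RAMP2 by 0.03, -0.00 and 0.10, and FLT4, a receptor of VEGFC, by 0.02, -0.02 and 0.01. The signal of CALCRL was low, from 2.97 in DMSO 4 to 3.91 in DMSO 1, and whether it exceeds background could not be told. Of 30 measured inhibitors of vessel growth or of receptor signalling, 2 rose under DFO, SPRY1 by 0.48 and SPRED2 by 0.20, both feedback inhibitors of receptor tyrosine kinases, where 1.89% of all genes rose. Under Deferasirox 1 rose, SPRY1 by 0.31, where 2.83% of all genes rose, and 0 rose under OICR623. These calls were lost without a block, and SPRY1 under Deferasirox was kept in 11 of 22 alternatives. None of the 30 was called lower under any compound by limma. At an unadjusted p under 0.05, 6, 3 and 2 were higher and 5, 2 and 1 lower under DFO, Deferasirox and OICR623. Of all genes, 15.7%, 18% and 10.7% passed that threshold in either direction. Of the 17 measured regulators of VEGF mRNA processing and stability, such as ELAVL1 and ZFP36, 0 were called in either direction by limma under any compound. At an unadjusted p under 0.05, 0, 3 and 1 passed under DFO, Deferasirox and OICR623, beside the same shares of all genes (15.7%, 18% and 10.7%).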

How the data were processed

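RNA of SW480 cells was hybridised to 13 Affymetrix Human Gene 1.0 ST arrays, grouped by the labels into DFO (n = 4), Deferasirox (n = 3), OICR623 (n = 2) and DMSO (n = 4). The deposited values are log2 signals made by the authors; the submitters' processing notes name GCRMA and limma without version, role or order, so background correction and centring are not given in the sources used here. Of 32321 transcript clusters, 19158 had 1 symbol, 1388 several and 11775 none in the platform table. The cluster with the highest mean was kept for each of 18404 genes, and clusters with several symbols were left out.

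Differences were fitted with limma 3.58.1 in R 4.3.3 over all groups and genes, with the array-median level (medians split at gaps over 0.05) as a fixed block, 7 residual degrees of freedom and Benjamini-Hochberg adjustment over all genes. The members, the gene lists and the tests were chosen with earlier results of these data known. The genes named from each list were the 4 called genes with the largest change in each direction, plus NRP2 and the receptors FLT4, APLNR, CALCRL and RAMP2. The alternatives were the fit without a block, a replicate block, a random block (statmod 1.5.0), the middle level alone, centring, quantile normalization, a filter on dim genes, every cluster tested, an intensity trend, and each array left out. The middle level alone, centring and quantile normalization were each fitted without a block. The replicate numbers of DFO and DMSO deviated together (correlations 0.945, 0.662, 0.738 and 0.788). Same-numbered arrays of these groups also share a level, so these correlations do not separate the pairing from the level. Replicates 2 and 3 of both groups lie in the middle level, and whether the pairing adds to the level there was not tested. The main fit holds the level and not the replicate number. Same-numbered arrays had correlations of -0.058, 0.333 and -0.324 for Deferasirox and DMSO, and 0.291 and -0.009 for OICR623 and DMSO. Of these pairs only those of replicate 2 share a level. Data were simulated for DFO against DMSO over 18404 genes, with 50 genes changed at each size. Of genes changed by 0.25, 0.5, 1 and 2, 58%, 90%, 100% and 98% were called. Among the unchanged genes 9 were called. The noise was drawn independently around the fitted level model, so the simulation takes the level block as given. The number of arrays limits the precision.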

Additional observations from a re-analysis of the deposited data

Results flagged for a closer look

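In the DMSO and DFO groups of 4 arrays, 4 of the values of the 10 genes lay far from the other three arrays of their group; chance alone gives about 1 such value in 20 groups. VEGFA was 9.58 in DFO 1, with 9.06 in the nearest array. PGF was 7.46 in DFO 1, with 6.94 in the nearest array. VEGFB was 9.75 in DMSO 1, with 9.34 in the nearest array. DFO 1 and DMSO 1 are the 2 arrays of the high level, and whether these values follow the array median was not tested. ANGPTL4 was 7.96 in DFO 4, an array of the low level, with 7.63 in the nearest array.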

How the results depend on the processing

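Against DMSO, VEGFA, ADM and ANGPTL4 were called higher under DFO in 23 of 23 alternatives and under Deferasirox in 22 of 22. APLN was called in 22 of 23 and 20 of 22, and lost its call without a block in both. Under OICR623 VEGFA was called in 18, ADM in 20, APLN in 16 and ANGPTL4 in 8 of 22. VEGFA was lost there without OICR623 1 (adjusted p = 0.10) or OICR623 2 (0.071), APLN without OICR623 1 (0.13) or DMSO 3 (0.051), and ANGPTL4 without either OICR623 array (0.17 for each) or any 1 of DMSO 2, DMSO 3, DFO 2, DFO 3 and the Deferasirox arrays (0.054 to 0.10). The count of the 10 genes called under OICR623 was 4 and fell to 0 without a block and with a replicate block. It fell to 2 after centring, a fit that also had no block, and to 2 with every cluster tested. With 1 array left out it was 1 (without OICR623 1) to 4, and 2 without OICR623 2 or DMSO 3. With a replicate block in place of the level it was 4 for DFO, 3 for Deferasirox (APLN lost, adjusted p = 0.096) and 0 for OICR623. That block mixes levels for Deferasirox and OICR623. Deferasirox 1 and OICR623 1 are of the middle level and DMSO 1 of the high. Deferasirox 3 is of the low level and DMSO 3 of the middle. Whether the lost calls come from this was not tested.

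For OICR623 against DFO the count of 0 became 1 with a random block or an intensity trend, 2 in the middle level, and 0 to 1 with 1 array left out (1 without DMSO 4). For OICR623 against Deferasirox it became 2 with a random block, an intensity trend or the middle level, 1 with dim genes left out, and 0 to 2 with 1 array left out (2 without DMSO 4, 1 without DMSO 1 or DFO 1). For Deferasirox against DFO it was 0 in all alternatives run.

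Over all genes, DFO gave 847 calls, and 45 without a block, 78 with a replicate block, 274 in the middle level, 154 after centring, 169 after quantile normalization and 494 (without DFO 4) to 846 with 1 array left out. Deferasirox gave 1074, and in the same order 43, 127, 326, 170, 186 and 546 (without Deferasirox 3) to 1066. OICR623 gave 135, and in the same order 7, 10, 81, 19, 25 and 33 (without OICR623 1) to 173, with 203 when dim genes were left out, 74 with every cluster tested and 338 with an intensity trend. The fits in the middle level, after centring and after quantile normalization had no block. Their counts therefore differ from the main fit in the block as well as in the data. A fit of the 8 DFO and DMSO arrays alone with the replicate block in place of the level, which changes the arrays and the block together, gave 619 calls, with 4 of the 10 genes.

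Centring, quantile normalization and the middle level alone were fitted without a block. Small differences changed sign. After centring they were VEGFB 0.0109 under DFO; VEGFC 0.0934, FLT4 0.084 and RAMP2 0.0818 under Deferasirox; and VEGFB 0.0050, VEGFC 0.0443, PGF -0.0226, NRP1 0.115, NRP2 0.0199 and CALCRL 0.0437 under OICR623. After quantile normalization they were VEGFB 0.00256 under DFO, VEGFC 0.0724, NRP1 0.0188, FLT4 0.0702 and RAMP2 0.0658 under Deferasirox, and VEGFB 0.0504, VEGFC 0.0255, PGF -0.0147, NRP1 0.158, NRP2 0.0661 and CALCRL 0.0194 under OICR623. In the middle level they were VEGFB 0.0294 under DFO, VEGFC 0.0632, PGF -0.0151, CALCRL -0.0708 and RAMP2 0.0943 under Deferasirox, VEGFB 0.0104 and VEGFC 0.0102 under OICR623, and ADM -0.0663 for Deferasirox against DFO. Without a block they were VEGFB -0.0408, PGF -0.101, CALCRL -0.119 and PLXND1 -0.0409 under Deferasirox, PGF -0.122, NRP1 0.0157, FLT1 -0.00721 and FLT4 -0.0508 under OICR623, and VEGFA -0.128 and ADM -0.0995 for Deferasirox against DFO. With the replicate block they were VEGFB -0.0785, PGF -0.147, CALCRL -0.282, CXCR4 -0.0097, PLXND1 -0.12 and EPHB4 -0.109 under Deferasirox, PGF -0.188, FLT4 -0.083, RAMP2 -0.021 and PDGFB -0.137 under OICR623, VEGFA -0.246 and ADM -0.116 for Deferasirox against DFO, and NRP2 -0.0287 for OICR623 against DFO. Of these, CXCR4, PLXND1, EPHB4 and PDGFB had been called, and the replicate block mixes levels for Deferasirox and OICR623.

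With 1 array left out, the ranges that cross 0 were, under DFO, VEGFB -0.0254 to 0.015, VEGFC -0.0762 to 0.00084, FLT4 -0.019 to 0.0686, APLNR -0.0203 to 0.0596 and RAMP2 -0.00713 to 0.117. Under Deferasirox they were VEGFB -0.000964 to 0.0891, VEGFC -0.0612 to 0.0793, PGF -0.0255 to 0.109, FLT4 -0.061 to 0.0506, CALCRL -0.0411 to 0.073 and RAMP2 -0.0477 to 0.097. Under OICR623 they were VEGFB -0.0749 to 0.0367, VEGFC -0.0642 to 0.0428, PGF -0.041 to 0.119, NRP1 -0.020 to 0.00932, KDR -0.047 to 0.0401 and FLT4 -0.12 to 0.13. For Deferasirox against DFO they were VEGFA -0.00748 to 0.19, ADM -0.0269 to 0.122 and APLN -0.0709 to 0.0406, and for OICR623 against DFO NRP2 -0.00371 to 0.0651. FLT1, KDR and CALCRL fell under the dim-gene filter and have no value there. The cause of these changes was not tested.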
